A study of Mus musculus with 12 samples.

Results

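The 10 genes described here, Lrat, Reln, Hand2, Pdgfra, Des, Tcf21, Nes, Acta2, Tagln and Pdgfrb, mark hepatic stellate cells and the myofibroblasts that these cells can become. They were taken by symbol from the 55536 genes measured, and all 10 were found once in each deposited table. Lrat, Reln and Hand2 stand for the quiescent cell, and Acta2, Tagln and Pdgfrb for the activated cell. The study sequenced ribosomal-RNA-depleted total RNA from livers of wild-type C57BL/6J mice aged 8 weeks. All 12 samples came from mice given adenovirus by tail vein at 0.1 OD and killed 12 days later at zeitgeber time 12, after 6 h of food withdrawal during the day. The virus carried a short hairpin RNA (shRNA) against lacZ (the control, shLacZ), against G0s2 (shG0s2) or against Rgs16 (shRgs16), with 4 samples per group, so the controls carry virus too. The labels give no sex and do not say that replicates were separate animals, and the p-values therefore reflect only how far these samples spread, which may be technical.

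Stellate cells lie between hepatocytes and the sinusoidal endothelium and store vitamin A as retinyl esters. When a liver is injured they can lose these stores, take on contractile filaments, respond to platelet-derived growth factor (PDGF) and deposit matrix. The retinoid storage gene Lrat is therefore read as a sign of the quiescent state, and smooth muscle actin, transgelin and PDGF receptor beta as signs of the activated state. Reln and Hand2 are placed beside Lrat as quiescent markers. The comparisons ask how each hairpin altered these markers relative to shLacZ, and whether the quiescent and activated markers changed alike. In whole-liver RNA a change in the number of cells of a type and a change in RNA per cell cannot be told apart.

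Total counts per sample ran from 18458266 to 27170443. In counts relative to the library total after TMM scaling (CPM), G0s2 averaged 73.7 ± 9.80 in shLacZ, 37.2 ± 10.1 in the shG0s2 group and 75.0 ± 14.1 in the shRgs16 group (SD, n = 4 each). Rgs16 averaged 149 ± 46.3, 59.1 ± 11.4 and 26.2 ± 10.9 CPM in the same order, so the shG0s2 samples also had less Rgs16. Hairpin comparisons with shLacZ use the same 4 control samples. Log2 fold changes, standard errors (SE) and adjusted p-values come from edgeR's quasi-likelihood test with Benjamini-Hochberg adjustment over all genes tested, and a gene was called at an adjusted p under 0.05. Scaling by TMM places the median gene near 0. With library size alone, the median log2 fold change of all genes was 0.50 in shG0s2 and 0.31 in shRgs16, so every change below is relative to the bulk of genes. The shG0s2 value of Lrat, 1.0 with TMM, thus reached 1.67 on a log2 TPM scale.

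All 10 markers rose in shG0s2, whereas 7 of the 10 rose in shRgs16 and the 3 quiescent markers were not called there. In shG0s2 against shLacZ 60.5% of 15592 genes tested were called, 31.3% higher and 29.2% lower. In shRgs16 against shLacZ 49.1% of 15324 genes were called, 24.6% higher and 24.5% lower. The share of genes whose 4 hairpin samples all lay above the 4 control samples was 28.2% in shG0s2 and 22.2% in shRgs16, and the share whose ranges were apart in either direction was 55.6% and 45% (27.4% and 22.7% lower). In CPM all 10 markers lay above the controls in this way in shG0s2, and 6 of 10 in shRgs16. All 10 passed the filter on low counts in each comparison.

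**Figure D1:**
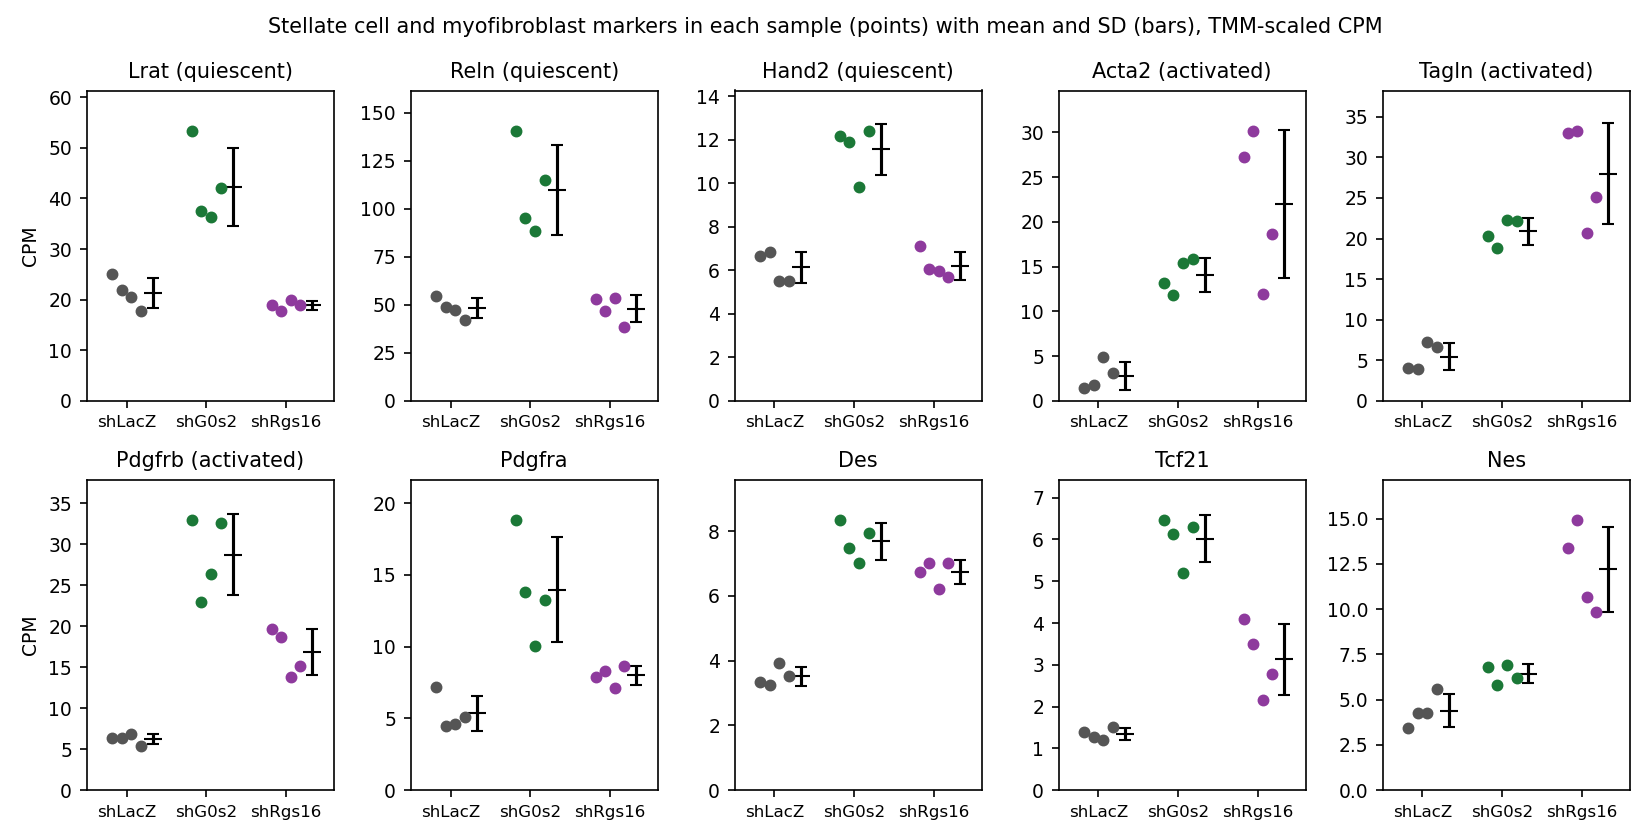
CPM of each of the 10 markers in every sample (points), with group mean and SD (black bars, n = 4), in shLacZ, shG0s2 and shRgs16, with a separate vertical axis from 0 in each panel. The 4 shG0s2 samples lie above all others for Lrat, Reln and Hand2, while Acta2, Tagln and Nes have their highest mean in shRgs16.

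The quiescent markers rose in shG0s2 by about the same amount, with log2 fold changes between 0.92 and 1.20. In TMM-scaled CPM they stayed near the control level in shRgs16. In TPM (abundance per transcript length) the shRgs16 samples lay above the controls for Lrat (4.61 to 4.78 against 3.16 to 4.55). The same held in TPM for Hand2 (3.40 to 4.33 against 2.40 to 3.02), while the Reln ranges overlapped. Lrat encodes lecithin retinol acyltransferase, which makes retinyl esters. Reln encodes reelin, a large secreted glycoprotein. Hand2 encodes a basic helix-loop-helix transcription factor of mesenchymal cells. The bases before their start sites are shown to set the quiescent promoters beside that of Acta2 given further on. They come from RefSeq on GRCm38.p6, read 5′ to 3′ on the gene's strand. Capitals mark a match to a CArG-like motif, a relaxed form of the CArG box, the element bound by serum response factor (SRF), in which 1 of the 6 middle bases may be C or G. The windows lie at chr3:82903975-82904224 (minus strand) for Lrat, chr5:22344706-22344955 (minus strand) for Reln and chr8:57320733-57320982 (plus strand) for Hand2.
Lrat: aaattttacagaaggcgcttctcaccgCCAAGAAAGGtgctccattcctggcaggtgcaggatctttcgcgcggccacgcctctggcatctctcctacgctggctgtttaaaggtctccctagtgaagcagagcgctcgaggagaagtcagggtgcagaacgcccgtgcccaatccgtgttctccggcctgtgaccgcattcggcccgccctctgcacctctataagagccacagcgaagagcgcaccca
Reln: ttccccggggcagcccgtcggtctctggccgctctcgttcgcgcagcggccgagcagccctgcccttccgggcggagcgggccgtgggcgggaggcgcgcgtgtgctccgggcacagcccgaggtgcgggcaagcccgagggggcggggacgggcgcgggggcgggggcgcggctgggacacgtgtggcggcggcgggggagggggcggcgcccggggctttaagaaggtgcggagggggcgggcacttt
Hand2: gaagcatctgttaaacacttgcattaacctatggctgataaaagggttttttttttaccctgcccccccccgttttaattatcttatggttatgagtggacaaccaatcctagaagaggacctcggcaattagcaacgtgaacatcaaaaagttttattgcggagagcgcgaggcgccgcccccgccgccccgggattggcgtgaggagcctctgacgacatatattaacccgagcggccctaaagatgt

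Lrat (ENSMUSG00000028003; GRCm38 chromosome 3, 82892579 to 82903973, minus strand) had 25.0, 21.9, 20.5 and 17.7 CPM in shLacZ, 53.3, 37.5, 36.3 and 42.1 in shG0s2 and 18.9, 17.8, 19.9 and 18.9 in shRgs16. Every shG0s2 sample lay above every other sample, and the shRgs16 samples lay inside the control range. Lrat rose in shG0s2 by a log2 fold change of 1.0 (SE 0.137, edgeR adjusted p 0.000108). In shRgs16 the value was −0.18 with a 95% interval of −0.38 to 0.03 and an adjusted p of 0.146, and it was 0.12 when scaled by library size alone. Without shLacZ replicate 4 the shRgs16 value was −0.26 and was called (edgeR adjusted p 0.0260).

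Reln (ENSMUSG00000042453; chromosome 5, 21884454 to 22344702, minus strand) had 54.9, 48.8, 47.4 and 41.9 CPM in shLacZ, 141, 95.2, 88.6 and 115 in shG0s2 and 53.1, 47.0, 53.4 and 38.3 in shRgs16. The shG0s2 samples again stood above all others, and the shRgs16 and control samples overlapped. The log2 fold change was 1.20 (SE 0.147, edgeR adjusted p 9.5e-05) in shG0s2. In shRgs16 it was −0.01 with an interval of −0.25 to 0.23 (adjusted p 0.941), and with library size alone it was 0.29 and called (adjusted p 0.0497). Its sign also turned without shLacZ replicate 1 (0.05) or shRgs16 replicate 4 (0.08).

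Hand2 (ENSMUSG00000038193; chromosome 8, 57320983 to 57324633, plus strand) had 6.65, 6.84, 5.53 and 5.51 CPM in shLacZ, 12.2, 11.9, 9.85 and 12.4 in shG0s2 and 7.14, 6.07, 5.95 and 5.69 in shRgs16. It rose in shG0s2 by 0.92 (SE 0.117, edgeR adjusted p 2.7e-05). In shRgs16 the log2 fold change was 0.02 with an interval of −0.26 to 0.30 (adjusted p 0.919), and its sign turned without shLacZ replicate 3 (−0.04), shLacZ replicate 4 (−0.03) or shRgs16 replicate 1 (−0.06). On the log2 scale of TPM (abundance per transcript length) plus 1 the shRgs16 value was 0.34 and called (limma adjusted p 0.0149). Hand2 shares 461 of its 2351 exon bases with the opposite-strand transcript Hand2os1, which averaged 90.5, 159.25 and 120.75 counts in shLacZ, shG0s2 and shRgs16. The strand setting of the counting is not given, so Hand2 values are uncertain to that extent.

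The activated markers rose in both hairpin groups, Acta2 and Tagln with the larger fold change in shRgs16 and Pdgfrb in shG0s2. Acta2 encodes smooth muscle alpha-actin, the filament protein by which myofibroblasts are usually recognised. Its upstream window (GRCm38.p6, chr19:34255374-34255623, minus strand) is shown because it holds a pair of the CArG-like matches, in capitals.
Acta2: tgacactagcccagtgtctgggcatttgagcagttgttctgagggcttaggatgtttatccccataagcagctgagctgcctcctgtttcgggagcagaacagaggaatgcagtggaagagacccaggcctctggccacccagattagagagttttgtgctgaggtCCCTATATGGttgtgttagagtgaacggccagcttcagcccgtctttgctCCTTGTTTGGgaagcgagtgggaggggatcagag

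The first bases of the 2 Acta2 matches, CCCTATATGG and CCTTGTTTGG, lie 84 and 34 bases before the RefSeq gene start. The GENCODE model of Acta2 begins further upstream, at 34255590, inside the printed window. The single Lrat match, CCAAGAAAGG, lies 223 bases before its start. Windows from 250 bases before to 50 after the start were searched on both strands in 32851 RefSeq promoters, of which 9.98% held at least 1 match and 0.822% held 2 or more. Of the 10 markers 8 have a window in the table, Tagln and Pdgfrb having none, and Reln, Hand2, Pdgfra, Des, Tcf21 and Nes had 0 matches. The strict CArG box was present in 1.63% of windows and in 0 of the 8 marker windows. The relaxed pattern was chosen after that count was seen.

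Acta2 (ENSMUSG00000035783; chromosome 19, 34241090 to 34255590, minus strand) had 1.396, 1.75, 4.86 and 3.11 CPM in shLacZ, 13.2, 11.8, 15.4 and 15.9 in shG0s2 and 27.3, 30.2, 11.9 and 18.7 in shRgs16. The control samples were low and uneven, with 30 to 110 counts, and neither hairpin group overlapped them. The shG0s2 samples lay close together, while the shRgs16 samples spanned a wider range that overlapped them. Acta2 rose by a log2 fold change of 2.34 (SE 0.323, edgeR adjusted p 0.000265) in shG0s2 and by 2.98 (SE 0.459, adjusted p 0.00160) in shRgs16. Acta2 has close relatives among the actins, and how the deposited counts treat reads that fit several of them is not given in the sources used here, so its level is uncertain to that extent.

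Tagln encodes transgelin, an actin-binding protein of smooth muscle. Tagln (ENSMUSG00000032085; chromosome 9, 45929619 to 45936058, minus strand) had 4.09, 3.92, 7.21 and 6.59 CPM in shLacZ, 20.4, 18.8, 22.3 and 22.1 in shG0s2 and 33.0, 33.2, 20.7 and 25.1 in shRgs16. As for Acta2, shLacZ replicates 3 and 4 were the higher controls and shRgs16 replicates 3 and 4 the lower hairpin samples. Tagln rose by 1.94 (SE 0.178, edgeR adjusted p 5.0e-06) in shG0s2 and by 2.36 (SE 0.240, adjusted p 8.4e-05) in shRgs16. Its exons share 108 bases with Pcsk7 and 1241 of 1988 bases with the antisense gene Gm48529, both on the other strand. Pcsk7 averaged 1254.75, 1110.75 and 1340.75 counts and Gm48529 96, 78.25 and 100 counts in shLacZ, shG0s2 and shRgs16.

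Pdgfrb encodes the PDGF receptor through which stellate cells are driven to divide and migrate. Pdgfrb (ENSMUSG00000024620, chromosome 18) had 6.37, 6.32, 6.85 and 5.41 CPM in shLacZ, 32.9, 22.9, 26.4 and 32.6 in shG0s2 and 19.6, 18.7, 13.8 and 15.2 in shRgs16. The 3 groups did not overlap, and the order was shG0s2, shRgs16, shLacZ. Pdgfrb rose by 2.21 (SE 0.129, edgeR adjusted p 8.4e-08) in shG0s2 and by 1.43 (SE 0.130, adjusted p 6.0e-06) in shRgs16.

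**Figure D2:**
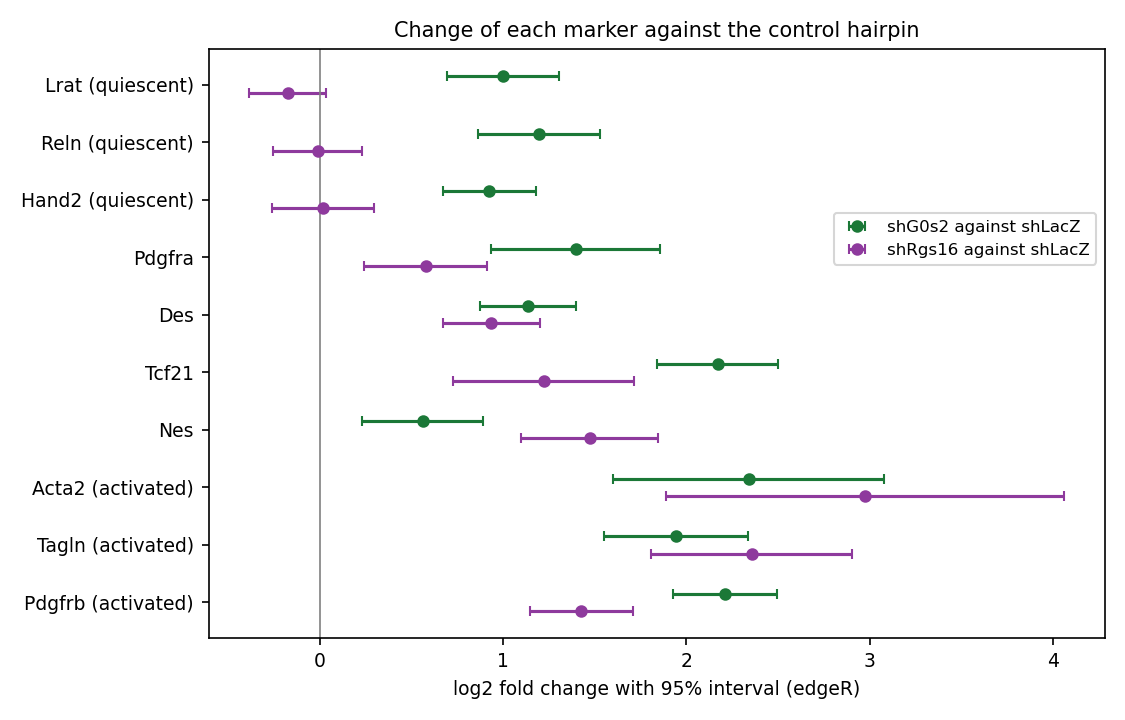
Log2 fold change of each marker against shLacZ with its 95% interval from edgeR, green for shG0s2 and purple for shRgs16. The shRgs16 intervals of Lrat, Reln and Hand2 span 0 while those of the other 7 markers lie above it, and the signs of Lrat and Reln in shRgs16 turn positive with library size alone.

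Among the remaining markers, Pdgfra, Des, Tcf21 and Nes rose in both groups. Pdgfra encodes PDGF receptor alpha, carried by stellate cells and fibroblasts. Pdgfra (ENSMUSG00000029231; chromosome 5, 75152292 to 75198215, plus strand) had 7.17, 4.48, 4.60 and 5.13 CPM in shLacZ, 18.8, 13.8, 10.02 and 13.2 in shG0s2 and 7.89, 8.33, 7.13 and 8.63 in shRgs16. Control replicate 1 lay above the lowest shRgs16 sample, so these groups overlapped. Pdgfra rose by a log2 fold change of 1.397 (SE 0.207, edgeR adjusted p 0.000193) in shG0s2 and by 0.58 (SE 0.154, adjusted p 0.00823) in shRgs16.

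Des encodes desmin, an intermediate filament used to recognise rodent stellate cells in either state. Des (ENSMUSG00000026208; chromosome 1, 75360329 to 75368579, plus strand) had 3.35, 3.26, 3.93 and 3.53 CPM in shLacZ, 8.34, 7.48, 7.005 and 7.93 in shG0s2 and 6.75, 7.02, 6.23 and 7.001 in shRgs16. Both hairpin groups stood clear of the controls and met each other near 7 CPM. Des rose by 1.14 (SE 0.120, edgeR adjusted p 6.4e-06) in shG0s2 and by 0.94 (SE 0.121, adjusted p 7.0e-05) in shRgs16.

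Tcf21 encodes a transcription factor of fibroblast and stellate lineages. Tcf21 (ENSMUSG00000045680; chromosome 10, 22817281 to 22820174, minus strand) had 1.396, 1.27, 1.19 and 1.51 CPM in shLacZ, 6.46, 6.14, 5.20 and 6.29 in shG0s2 and 4.10, 3.49, 2.15 and 2.78 in shRgs16, and the 3 groups did not overlap. It rose by 2.17 (SE 0.151, edgeR adjusted p 2.7e-07) in shG0s2, close to the change of Pdgfrb, and by 1.22 (SE 0.226, adjusted p 0.000863) in shRgs16. Nes encodes nestin, an intermediate filament of dividing and activated mesenchymal cells. Nes (ENSMUSG00000004891; chromosome 3, 87971078 to 87980451, plus strand) had 3.44, 4.25, 4.29 and 5.60 CPM in shLacZ, 6.80, 5.79, 6.94 and 6.22 in shG0s2 and 13.4, 14.9, 10.7 and 9.86 in shRgs16. It had the smallest change of the 10 markers in shG0s2, 0.56 (SE 0.152, edgeR adjusted p 0.00665), and rose by 1.47 (SE 0.171, adjusted p 3.2e-05) in shRgs16.

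Set directly against each other in a model of all 12 samples, the hairpin groups differed in 7 of the 10 markers. All 3 quiescent markers were higher in shG0s2 than in shRgs16, with log2 differences of 1.16 for Lrat, 1.20 for Reln and 0.89 for Hand2 (edgeR adjusted p 3.9e-06, 6.2e-05 and 1.9e-05). Pdgfrb, Pdgfra and Tcf21 were also higher in shG0s2, by 0.77, 0.81 and 0.94 (adjusted p 0.000258, 0.00182 and 0.000455), and Nes was lower by 0.92 on the log2 scale (value −0.92, adjusted p 0.000155). In this comparison 41.5% of 16018 genes were called, 21% higher and 20.5% lower, and 39.8% had ranges that did not overlap (20.4% higher, 19.4% lower). The same 7 markers had ranges that did not overlap.

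Acta2, Tagln and Des were not called between the hairpins. The Acta2 difference, shG0s2 minus shRgs16, was −0.65 with an interval of −1.38 to 0.08 (adjusted p 0.142), so a difference of more than 1 log2 unit in favour of shRgs16 lies within it. The Tagln difference was −0.42 with an interval of −0.82 to −0.03 (adjusted p 0.0829), and the Des difference was 0.19 with an interval of −0.03 to 0.41 (adjusted p 0.161). One library decided the first pair of calls: without shRgs16 replicate 3, which had the lowest Acta2 and Tagln of its group, Acta2 was lower in shG0s2 by −0.85 and Tagln by −0.55, both called (edgeR adjusted p 0.0398 and 0.0242). With library size alone Des was called higher in shG0s2, at 0.39 (adjusted p 0.0140).

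The contrast between activated and quiescent markers was formed in each sample as the mean log2 CPM of Acta2, Tagln and Pdgfrb minus that of Lrat, Reln and Hand2, a difference in which library scaling cancels apart from the prior count. In shLacZ it was −2.62, −2.44, −1.49 and −1.72, in shG0s2 −1.12, −1.02, −0.60 and −0.80, and in shRgs16 0.43, 0.62, −0.30 and 0.26. Each group occupied its own range, and 3 of the 4 shRgs16 samples were the only ones above 0. The group means were −2.07 ± 0.549, −0.88 ± 0.232 and 0.25 ± 0.397 (SD, n = 4). The contrast was higher than in shLacZ by 1.18 in shG0s2 and by 2.32 in shRgs16, and since the 6 genes were chosen with results in view these differences carry no test. In shG0s2 both terms lay above those of every control sample, and in shRgs16 the activated term alone did.

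**Figure D3:**
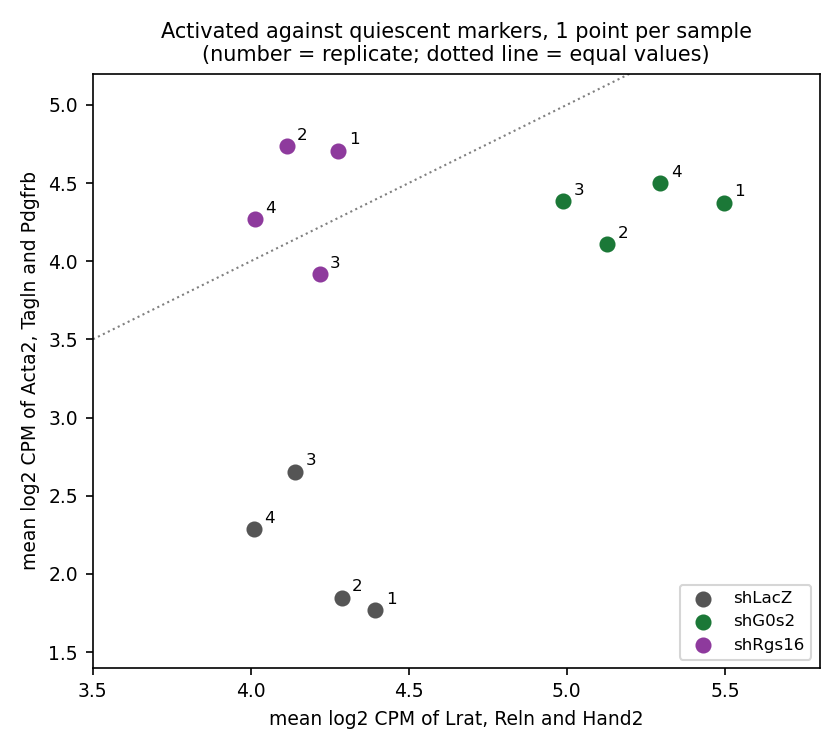
Mean log2 CPM of Acta2, Tagln and Pdgfrb (vertical) against mean log2 CPM of Lrat, Reln and Hand2 (horizontal), 1 point per sample with its replicate number, on axes that do not start at 0. The shRgs16 samples lie above the shLacZ samples at similar quiescent values, and the shG0s2 samples lie above and to the right.

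Levels can be compared between genes in TPM, which allows for transcript length. In shLacZ Reln was the most abundant marker at 13.5 ± 2.61 TPM, followed by Tagln at 3.92 ± 1.25 and Lrat at 3.92 ± 0.573, whose ranges overlapped. Hand2 followed at 2.75 ± 0.287, and from there to Nes at 0.705 ± 0.133 TPM each gene's range overlapped that of the next. In shG0s2 Reln (44.4 ± 9.34 TPM) and Tagln (24.2 ± 1.30) led without overlap, Lrat (12.7 ± 2.12) and Acta2 (12.3 ± 1.27) overlapped, and Nes was lowest at 1.71 ± 0.0926. In shRgs16 Tagln (27.03 ± 6.80 TPM) and Acta2 (15.9 ± 6.40) overlapped, as did Acta2 and Reln (15.5 ± 2.15), and Lrat came next at 4.68 ± 0.0750. Acta2 thus had a mean TPM below that of Lrat in shLacZ and above it in shRgs16. The ratio of Acta2 to Lrat TPM was 0.160 to 0.688 in shLacZ, 0.745 to 1.22 in the shG0s2 group and 1.73 to 4.89 in the shRgs16 group, again without overlap.

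All 4 genes of the PDGF ligands were called higher in shG0s2 (median log2 fold change 1.13) and 3 of 4 in shRgs16 (median 0.61), against a median of 0.01 for all genes in both. The shares of all genes tested that were called higher were 31.3% in shG0s2 and 24.6% in shRgs16. Pdgfb, whose product activates the beta receptor, averaged 3.29 ± 0.291 CPM in shLacZ, 7.50 ± 1.04 in the shG0s2 group and 6.35 ± 0.747 in the shRgs16 group. It rose by 1.19 (SE 0.139, edgeR adjusted p 1.4e-05) and 0.95 (SE 0.137, adjusted p 0.000151). Pdgfc, a ligand of the alpha receptor, averaged 5.14 ± 0.940, 10.7 ± 0.833 and 7.13 ± 0.748 CPM and was higher in shG0s2 than in shRgs16 by 0.59 (adjusted p 0.0014). Pdgfa rose by 0.95 and 0.58 (adjusted p 0.000362 and 0.0123).

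A further 17 genes known from quiescent stellate cells did not move as one. In shG0s2 10 were called higher and 5 lower, with a median of 0.40. In shRgs16 2 were higher and 8 lower, with a median of −0.26. With library size alone these counts became 12 and 3 (median 0.89) and 6 and 6 (median 0.04). Of all genes tested 31.3% were called higher and 29.2% lower in shG0s2, and 24.6% and 24.5% in shRgs16. With library size alone 10067 of 15592 genes were higher and 1246 lower in shG0s2, and 7686 and 1279 of 15324 in shRgs16. Dcn, the gene of the small matrix proteoglycan decorin, followed the quiescent markers, with 98.8 ± 8.68 CPM in shLacZ, 208 ± 29.1 in the shG0s2 group and 96.5 ± 2.04 in the shRgs16 group. It rose by 1.08 in shG0s2 (SE 0.100, edgeR adjusted p 3.0e-06) and its value in shRgs16 was −0.04 (adjusted p 0.669).

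Colec10, a collectin gene transcribed in stellate cells, had a different pattern. It had 21.3, 23.9, 19.2 and 23.0 CPM in shLacZ, 20.9, 22.2, 17.8 and 22.6 in shG0s2 and 6.89, 5.46, 8.14 and 6.36 in shRgs16, so only the shRgs16 samples were low. Colec10 fell by 1.71 on the log2 scale in shRgs16 (SE 0.120, edgeR adjusted p 1.3e-06), and in shG0s2 the value was −0.06 (adjusted p 0.628). Angptl6, a secreted angiopoietin-like factor, fell in both, with 9.34 ± 0.776 CPM in shLacZ, 3.49 ± 0.445 under the G0s2 hairpin and 2.35 ± 0.453 under the Rgs16 hairpin (log2 fold changes −1.40 and −1.99, adjusted p 1.7e-06 and 1.8e-06). Compared directly, 9 of the 17 genes were called higher in shG0s2 than in shRgs16 and 0 lower, with a median difference of 0.45. Among all 16018 genes 21% were called higher and 20.5% lower. With library size alone 12 of the 17 were higher and 0 lower, against 6054 higher and 1568 lower of all genes.

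Most contractile and cytoskeletal genes other than the markers rose in both groups. Of 15 tested in each comparison with shLacZ, 11 were called higher and 1 lower in shG0s2 (median 0.96), and 12 higher and 1 lower in shRgs16 (median 1.0). Among all genes 31.3% were called higher and 29.2% lower in shG0s2, and 24.6% and 24.5% in shRgs16. The sets of 15 differ, with Cnn1 (1.26, not called) tested in shRgs16 alone and Actg2 (1.99, called) in shG0s2 alone. Actg2 passed the low-count filter with the shG0s2 samples but not with the shRgs16 samples, so its call carries little weight. Tagln2, a close relative of Tagln, averaged 16.2 ± 1.26 CPM in shLacZ, 72.1 ± 8.51 in the shG0s2 group and 40.6 ± 6.21 in the shRgs16 group, and the log2 fold changes were 2.16 (SE 0.0929) and 1.32 (SE 0.107; edgeR adjusted p 1.1e-08 and 3.3e-06). Tpm1, a tropomyosin gene, rose by 1.15 and 0.84 (adjusted p 5.7e-08 and 3.9e-06). Flna, the gene of the actin crosslinker filamin A, averaged 71.98 ± 2.198, 146 ± 18.6 and 144 ± 17.6 CPM and rose by 1.03 and 1.0 (adjusted p 7.9e-07 and 2.7e-06). Between the hairpins 2 of 16 were called higher in shG0s2 and 4 lower, and with library size alone 5 were higher and 0 lower. Of all 16018 genes 21% were called higher and 20.5% lower, and with library size alone 6054 were higher and 1568 lower. In the promoter table the CArG-like motif was present in 2 of the 14 listed contractile genes that have a window (Cnn2 and Myl9) and in 1 of 12 further quiescent genes (Pparg).

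**Figure D4:**
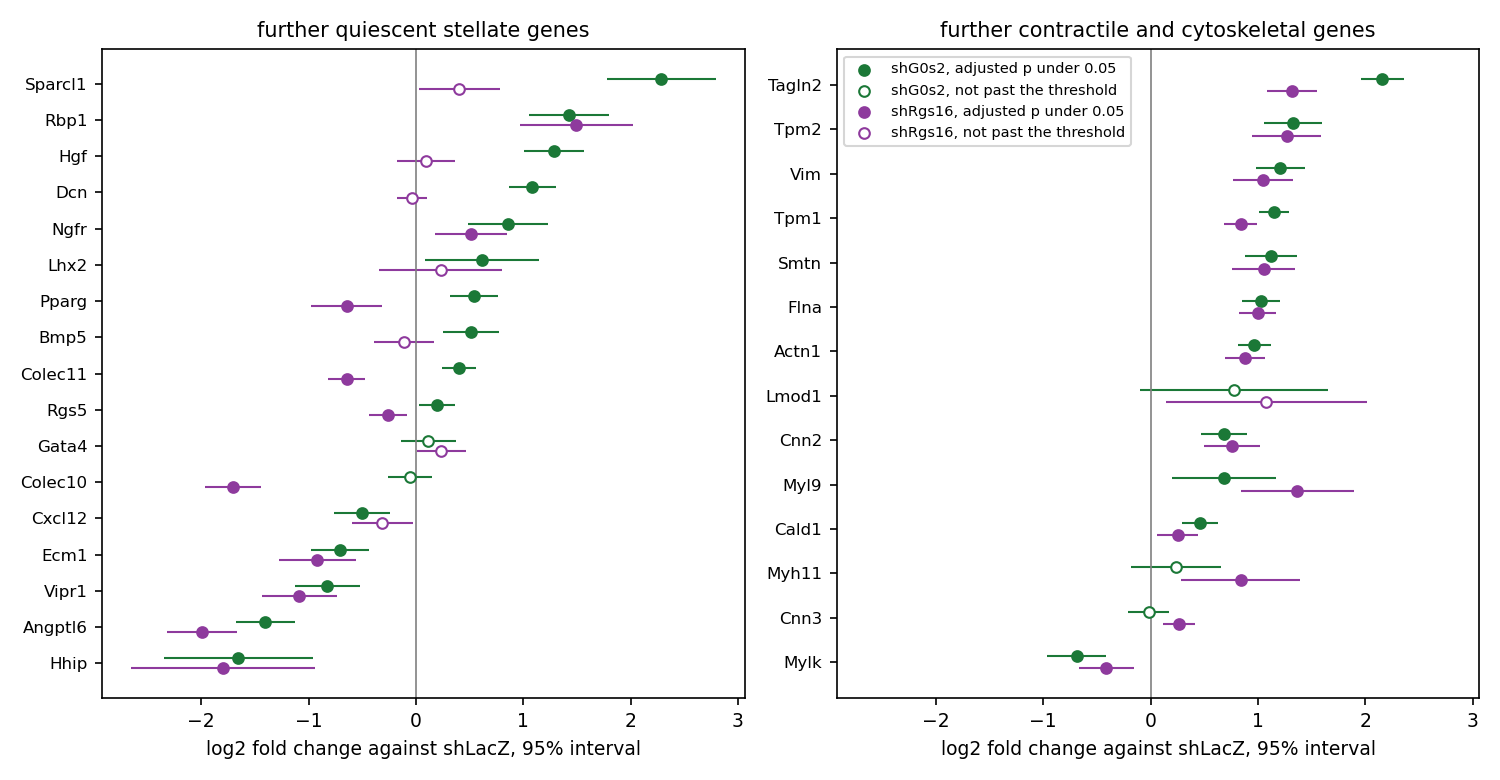
Log2 fold change against shLacZ with 95% interval for further quiescent stellate genes (left) and contractile and cytoskeletal genes (right) tested in both comparisons, green for shG0s2 and purple for shRgs16, filled where the adjusted p was under 0.05. The quiescent genes spread to both sides of 0 and are mostly further left in shRgs16, whereas all but a few contractile genes lie to the right in both groups, and library size alone moves the points to the right.

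Genes of the SRF and YAP systems, which control contractile and growth transcripts, were called higher in 7 of 11 cases in each group, with 1 lower in shG0s2 and 0 in shRgs16 (medians 0.85 and 0.42). The lower gene was Amotl2 (−0.58, edgeR adjusted p 0.0124), which was at −0.06 in shRgs16 (adjusted p 0.795). The shares over all genes tested were 31.3% higher and 29.2% lower in shG0s2, and 24.6% and 24.5% in shRgs16. With library size alone 10 of the 11 were higher in shG0s2 and 8 in shRgs16. At that scaling 10067 of 15592 and 7686 of 15324 genes were higher. Neither Srf (0.04 and 0.02, adjusted p 0.842 and 0.924) nor Yap1 (0.02 and −0.16, adjusted p 0.771 and 0.060) was called in shG0s2 or shRgs16. Ccn2, the gene of connective tissue growth factor, averaged 6.29 ± 0.774 CPM in shLacZ, 24.2 ± 6.01 in the shG0s2 group and 14.8 ± 2.74 in the shRgs16 group, and rose by 1.95 (SE 0.194, edgeR adjusted p 1.7e-05) and 1.23 (SE 0.148, adjusted p 4.0e-05). Wwtr1, which encodes the coactivator TAZ, rose in shG0s2 by 0.85 (adjusted p 5.0e-06), had a value of 0.07 in shRgs16 (adjusted p 0.530), and differed between the hairpins by 0.77 (adjusted p 7.4e-06). Ankrd1, a target of both systems, was at 0 to 0.0931 CPM in shLacZ, 0.436 to 0.783 in the shG0s2 group and 0.509 to 1.38 in the shRgs16 group. It passed the low-count filter through the hairpin samples where it was high, so its calls among the 7 carry little weight. Ajuba, a LIM protein gene, rose by 1.20 and 0.78 (adjusted p 6.8e-06 and 0.00126). Myocd, the SRF coactivator of smooth muscle, was at 0 in every shLacZ sample and below the low-count filter in each comparison, so no change is read for it.

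Retinoid handling genes were mixed, and hepatocytes as well as stellate cells transcribe several of them. In shG0s2 3 of 12 were called higher and 5 lower, and in shRgs16 5 higher and 4 lower (medians −0.24 and 0.05). Of all genes tested 31.3% were called higher and 29.2% lower in shG0s2, and 24.6% and 24.5% in shRgs16. With library size alone the retinoid counts were 5 and 2, and 6 and 0. At that scaling 10067 of 15592 genes were higher and 1246 lower in shG0s2, and 7686 and 1279 of 15324 in shRgs16. Aldh1a2, which makes retinoic acid, was low in shLacZ at 0.231 ± 0.113 CPM and higher in shG0s2 at 2.04 ± 0.470 and in shRgs16 at 0.656 ± 0.0745 (log2 fold changes 3.12 and 1.49, edgeR adjusted p 1.1e-05 and 0.00571). Aldh1a2 passed the low-count filter through the hairpin samples where it was high, so these calls carry little weight. Rbp4, the serum retinol carrier made by hepatocytes, averaged 2021 ± 142, 1010 ± 91.6 and 1510 ± 79.4 CPM and fell with TMM scaling in both groups, while in shRgs16 on the TPM scale the value was 0.02.

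Several of the 10 markers are shared with other mesenchymal cells. Of 7 portal fibroblast and mesothelial markers tested in shG0s2 all 7 were called higher, and 5 of 6 were in shRgs16, with 5 or 6 of the 12 listed below the filter. Among the 7, Lrrn4 (3.45 in shG0s2) passed the filter with the shG0s2 samples but not with the shRgs16 samples. Its passing depended on samples where it was high, so its call carries little weight. Their summed level was 15.4 to 25.3 CPM in shLacZ, 48.2 to 66.5 in the shG0s2 group and 39.6 to 80.4 in the shRgs16 group. The mesothelial gene Upk1b was at 0 in every shLacZ sample and below the filter in each comparison, so no change is read for it. Eln, the elastin gene, had 4.98, 3.59, 5.97 and 3.25 CPM in shLacZ, 17.5, 19.6, 19.4 and 26.4 in shG0s2 and 45.1, 38.3, 15.7 and 29.6 in shRgs16, with the same shRgs16 replicate lowest as for Acta2. Eln rose by 2.23 and 2.85 (edgeR adjusted p 4.4e-06 and 0.000819). Smooth muscle and pericyte markers, which share 3 genes with the contractile list and 1 with the further quiescent list, were called higher in 5 of 8 in shG0s2 with 0 lower, and in shRgs16 2 were higher and 3 lower. With library size alone these counts were 7 and 0, and 2 and 1. The shG0s2 count of 5 includes Actg2, which passed the filter with the shG0s2 samples but not with the shRgs16 samples. Of all genes tested 31.3% were called higher and 29.2% lower in shG0s2, and 24.6% and 24.5% in shRgs16. With library size alone 10067 of 15592 genes were higher and 1246 lower in shG0s2, and 7686 and 1279 of 15324 in shRgs16.

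The summed level of the smooth muscle and pericyte markers was 98.0 to 131 CPM in shLacZ, 165 to 206 in the shG0s2 group and 99.6 to 117 in the shRgs16 group. In TPM the sums were 21.1 to 26.3, 49.4 to 66.9 and 30.7 to 40.5, so that there the shRgs16 samples also lay above the controls. Notch3, a receptor of vascular mural cells, had 9.07, 10.1, 12.0 and 25.8 CPM in shLacZ, 51.7, 81.3, 94.0 and 78.4 in shG0s2 and 18.7, 14.8, 9.67 and 13.4 in shRgs16, so it was high in shG0s2 alone. It averaged 14.3 CPM in shLacZ and 76.3 in shG0s2, while the summed level averaged 107 and 192. Much of the rise of the sum in shG0s2 thus lay in Notch3. Mcam, an adhesion molecule of mural and endothelial cells, rose in both groups, from 7.43 ± 0.624 to 13.7 ± 1.52 and 17.7 ± 2.45 CPM. The part of portal fibroblasts and mural cells in the marker changes was not tested.

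Markers of the other liver cells also differed between groups. Of all genes tested 31.3% were called higher and 29.2% lower in shG0s2, and 24.6% and 24.5% in shRgs16. With library size alone 10067 of 15592 genes were higher and 1246 lower in shG0s2, and 7686 and 1279 of 15324 in shRgs16. All 10 proliferation genes were called higher in both hairpin groups, with summed levels of 82.5 to 87.8 CPM in shLacZ, 332 to 388 in the shG0s2 group and 161 to 229 in the shRgs16 group. Kupffer cell and macrophage markers were called higher in 9 of 10 in shG0s2 and 8 of 9 in shRgs16, with sums of 745 to 821, 1126 to 1365 and 1016 to 1203 CPM. Timd4 (1.56 in shG0s2, called) passed the low-count filter with the shG0s2 samples but not with the shRgs16 samples. Its passing depended on samples where it was high, so its call carries little weight. T and NK cell markers were called higher in 6 of 9 and 7 of 9, with 1 lower in each. Cholangiocyte markers were called higher in 4 of 8 and 3 of 8, and with library size alone in 7 and 5. Their sums overlapped in CPM (167 to 308, 219 to 303 and 157 to 243), while in TPM the shG0s2 sums (262 to 370) lay above those of shLacZ (131 to 237). Hepatocyte markers were called lower in 9 of 10 and 7 of 10, with 2 higher in shRgs16, and with library size alone in 7 and 3 (1 and 3 higher). Their sums were 56989 to 68718 CPM in shLacZ, 33269 to 55369 in the shG0s2 group and 60947 to 67450 in the shRgs16 group. In TPM they were 37452 to 40754, 33364 to 49742 and 46351 to 50701, so that the shG0s2 sums overlapped those of the controls and the shRgs16 sums lay above them. A sum gives most weight to the most abundant genes. The 2 hepatocyte markers called higher in shRgs16 were Alb (0.33) and Cps1 (0.40; edgeR adjusted p 0.0226 and 0.00735), while Serpina1c averaged 6519 CPM in shLacZ and 2924 in shRgs16.

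Sinusoidal endothelial markers, from cells that line the same space as stellate cells, were called higher in 0 of 10 and lower in 3 in shG0s2, and higher in 2 and lower in 0 in shRgs16. With library size alone 6 were higher and 1 lower in shG0s2, and 8 higher in shRgs16. Of all genes tested 29.2% were called lower in shG0s2 and 24.6% higher in shRgs16. With library size alone 10067 of 15592 genes were higher and 1246 lower in shG0s2, and 7686 of 15324 were higher in shRgs16. The endothelial sums were 534 to 552 CPM in shLacZ, 446 to 532 in the shG0s2 group and 492 to 678 in the shRgs16 group. In TPM, which TMM does not scale, the order differed, with 183 to 209 in shLacZ, 286 to 325 in the shG0s2 group and 240 to 317 in the shRgs16 group. The part of these other cell types in the marker values was not tested.

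Within groups, the gene that varied most like Acta2 from sample to sample was Tagln. The measure was Pearson's r of log2 CPM deviations from the group means over the 12 samples, among 12503 genes with a mean of at least 1 CPM. It was 0.97 for Tagln, 0.95 for Ska3 and Sema4d and 0.94 for Nelfe. For Lrat the 4 highest were Nipsnap2, Sema6c and Mms19 at 0.96 and Ak4 at 0.95, and none of these is among the markers. Reln had an r of 0.82 with Lrat, and Acta2 had −0.46 with Lrat. These values are given as descriptions, since the highest of so many genes are large by selection and the points share libraries and their scaling.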

How the data were processed

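RNA of 12 liver samples in 3 groups of 4 was analysed, with groups and replicate numbers read from the titles. The deposited tables, 1 for each hairpin against shLacZ, give estimated counts and TPM per gene and sample, per the file headers. Per the same file headers they carry the authors' fold (a ratio), log2 fold change, p-value and adjusted p-value, used here only for comparison. The submitters' processing notes list DESeq2, fastp 0.19.5, SAMtools 1.9, Bowtie2 2.2.9 and GATK 3.8. Genome build, counting program and strand setting: not given in the sources used here. GENCODE M21 (GRCm38) holds all 55536 gene identifiers and supplied the coordinates. The shLacZ columns were identical in both tables (0 differing values), so the samples were joined.

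After rounding of the estimated counts, edgeR 4.0.16 (R 4.3.3) was run with filterByExpr, TMM factors and a robust quasi-likelihood fit, two-sided, at a false discovery rate of 0.05. Each hairpin was compared with shLacZ on its 8 samples, and the hairpins with each other in a model of all 12. CPM use TMM factors over all 12 samples, and log2 CPM a prior count of 2. With totals of 18458266 to 27170443 counts, the lowest-level markers rest on 27 to 110 counts in control samples. The scripts were tested on simulated data.

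The markers and the gene lists were chosen with earlier results of these data known, so no list was tested as a set. The rule named all 10 markers, up to 2 genes of smallest p per list and comparison with shLacZ, the 4 genes most like Acta2 and like Lrat, and both targets. Within groups every pair of samples differed beyond counting noise. Alternatives were DESeq2 1.42.0, limma-voom and limma 3.58.1 on log2(TPM + 1) and log2(TPM + 0.1), library size alone, relative log expression scaling, no filter on low counts, at least 1 CPM in 4 samples, all samples in the model, a replicate block and each sample left out. Library-size counts of the lists and the relaxed CArG pattern were added after the data were seen. Promoter windows are RefSeq's (GRCm38.p6).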

Additional observations from a re-analysis of the deposited data

How the results depend on the processing

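The number of markers called was 10 in shG0s2 against shLacZ under every alternative run, 7 or 8 in shRgs16 against shLacZ and 7 to 9 between the hairpins. Of 530 planned marker values 511 kept their direction and call, 8 kept their direction and passed the threshold only under the alternative, 0 lost it and 11 turned sign. Of those 11, 1 was called, Reln in shRgs16 with library size alone. The turns were in the uncalled shRgs16 values of the quiescent markers. Lrat was 0.12 with library size alone, 0.26 on log2(TPM + 0.1) and 0.22 on log2(TPM + 1). Reln was 0.29, 0.21 and 0.20 in the same order. Leaving out single samples gave −0.058 to 0.071 for Hand2 and −0.075 to 0.081 for Reln. Among other named genes, Oit3 in shG0s2 was 0.081, 0.29 and 0.27 and Rgs5 in shRgs16 was 0.041, 0.18 and 0.16 in that order, and Rbp4 in shRgs16 was 0.017 on both TPM scales. These turns occur under scalings that move the median gene upwards or with fewer samples.

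Replicate numbers did not pair the samples. Correlations of same-numbered deviations ran from −0.07 to 0.14, and not every sample was most like its own number. With the replicate block 4836 genes were higher and 4463 lower in shG0s2, 3566 and 3538 in shRgs16, and 3292 and 3242 between the hairpins, with 10, 7 and 7 markers called. Scaling by library size alone moved the share of calls that were higher from 51.7% to 89.0%, from 50.1% to 85.7% and from 50.6% to 79.4%, and TPM to at most 94.2%, 92.2% and 85.3%. Depth limits Acta2, Tcf21 and Des, which have 27 to 110 counts in control samples.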
